A study of Mus musculus with 68 samples.

Results

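Expression of 36 imprinted genes of embryonic growth was examined among the 21948 genes of a deposited table from mouse pharyngeal arches. The genes were taken by symbol as known imprinted genes. Of these, 20 are known as expressed from the paternal allele and 12 from the maternal allele, while Gnas, Blcap, Commd1 and Trappc9 have mixed or tissue-limited imprinting. Each of the 36 symbols matched 1 row of the table, and all 36 passed the filter on low values, as did 18428 genes in all.

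Imprinted genes are read mainly from a single parental copy, because methylation laid down in the egg or the sperm marks a control region that governs a whole cluster of neighbours. Paternally expressed genes of this kind often favour growth of the embryo, with the insulin-like growth factor gene Igf2 as the textbook case, and maternally expressed genes such as Igf2r, Grb10, Cdkn1c and Phlda2 often restrain it. Pharyngeal arches are the paired outgrowths of the embryonic head and neck that form the jaws and the middle ear, and most of their mesenchyme comes from the neural crest. Alleles were not resolved in these data, so each value is the sum of both parental copies.

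The study measured polyadenylated RNA in the first arch (PA1) and the second arch (PA2) of single embryos from the strain cross CBA/Ca/J x C57BL/10, at 4 stages of embryonic development, from day E9.0 through E9.5 and E10.0 to day E10.5. Embryos were wildtype or labelled Hoxa2-/-, a homozygous loss of the homeobox gene that patterns PA2; how that allele was made is not given in the sources used here. In stage order there were 5, 5, 5 and 3 libraries of wildtype PA1 and 4, 4, 5 and 3 of wildtype PA2, and both labelled Hoxa2-/- arches had 4, 5, 5 and 3. The 68 libraries came from 35 embryos, and 33 of these gave both arches.

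The libraries held 8912251 to 20619153 reads each. Values are counts per 1e6 reads of a scaled library size, written CPM below, and 3 reads were worth 0.140 to 0.328 CPM. Hoxa2 mRNA was not lower under its label. In PA2 at E10.5 it stood at 116 to 147 CPM in the libraries labelled Hoxa2-/- and at 54.5 to 63.3 CPM in wildtype. In PA2 at E9.0 the ranges overlapped, at 16.8 to 36.3 CPM and 20.2 to 23.1 CPM. The allele is not described in the sources used here, so whether reads of Hoxa2 test the label is not known. The label is therefore used below only as a label. A second, unlabelled division ran through the libraries. Ski stood at 26.3 to 108 CPM in the 24 wildtype libraries outside E10.0, at 9.52 to 15.5 CPM in the 10 of wildtype E10.0 and at 9.28 to 22.8 CPM in the 34 libraries labelled Hoxa2-/-. Wildtype E10.0 was for that reason left out of comparisons between stages. Markers of arch mesenchyme were present in full (6 of 6 in the table), with a mean sum of 536 CPM at E9.0 and 676 CPM at E10.5 in wildtype PA1.

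Per kilobase of exon, averaged over the 16 groups, Mest was the highest of the 36 genes at 630 CPM per kb and Mirg the lowest at 0.179. Mest encodes a hydrolase-like protein of mesoderm, and 23.1% of its exonic bases are shared with a gene on the opposite strand. Behind it came Nnat at 179, Grb10 at 151, H19 at 85.9, Cdkn1c at 80.2, Ndn at 63.5, Peg3 at 55.6 and Slc38a4 at 55.1 CPM per kb. The growth factor itself was low: Igf2 averaged 2.83 CPM per kb, against 11.0 for Igf2r, the receptor that binds IGF2 and takes it to the lysosome. Igf2 is uncertain, since 64.5% of its exonic bases are shared with other annotated genes, 62.8% with a gene on the same strand. Nearly all genes were measured throughout, with at least 1 CPM in all 68 libraries for 33 of the 36. The exceptions were Phlda2 with 52 libraries, Mirg with 43 and Nap1l5 with 31.

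**Figure D1:**
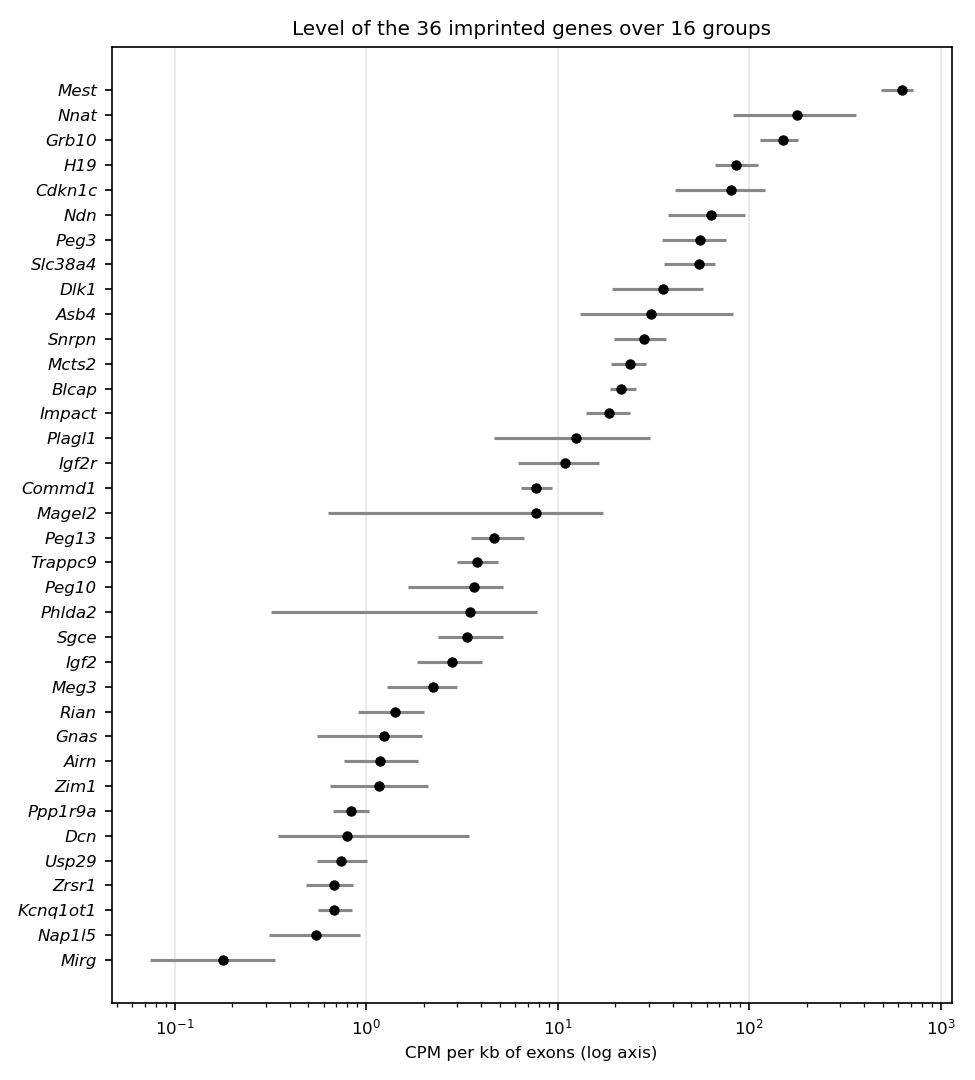
Level of each of the 36 imprinted genes in CPM per kilobase of exon, on a log axis; the dot is the mean of the 16 group means and the line runs from the lowest to the highest group mean. Mest stands highest at 630 and Mirg lowest at 0.179 CPM per kb.

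Several of these transcripts also carry microRNAs. RefSeq places 1 microRNA gene each within H19, Igf2, Mest and Usp29, 2 within Meg3, 3 within Rian and 14 within Mirg. The mature sequences of the pair in H19 and the pair in Mest are shown because their hosts are among the most abundant members (RefSeq, GRCm38.p6, written 5′ to 3′); capitals mark the seed, bases 2 to 8. The 4 seeds differ from each other. The microRNAs themselves were not measured, since the libraries were made from polyadenylated RNA.
mmu-miR-675-5p chr7:142577112-142577133, minus strand: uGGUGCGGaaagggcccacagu
mmu-miR-675-3p chr7:142577078-142577099, minus strand: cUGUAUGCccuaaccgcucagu
mmu-miR-335-5p chr6:30741314-30741336, plus strand: uCAAGAGCaauaacgaaaaaugu
mmu-miR-335-3p chr6:30741354-30741375, plus strand: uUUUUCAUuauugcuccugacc

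The first question was how the imprinted genes changed as the arches grew from E9.0 to E10.5. Within each arch and label, 15 to 19 of the 36 genes changed, in both directions. In wildtype PA1, 12 rose and 7 fell, or 52.8% of the 36, where 42.5% of all genes passed the same threshold (21% higher and 21.5% lower; limma, adjusted p under 0.05). In wildtype PA2, 8 rose and 9 fell, 47.2% against 36.9% of all genes (17.5% higher, 19.4% lower). In PA1 labelled Hoxa2-/-, 11 rose and 7 fell, 50% of the 36 against 31.2% of all genes (14.8% higher, 16.5% lower), and in PA2 labelled Hoxa2-/-, 6 rose and 9 fell, 41.7% against 30.9% (15.8% higher, 15.1% lower). The median log2 difference of the 36 was 0.29, -0.15, 0.10 and -0.19 in these 4 comparisons, and that of all genes 0.00, -0.01, -0.02 and 0.01. These comparisons do not share libraries, but the 2 arches of an embryo are in most cases both present. Tissue was bulk, so fewer cells of a type and less RNA per cell cannot be told apart. Over the same interval the summed epithelial markers (4 of 4 in the table, none at 0) went from 551 to 1171 CPM over the E9.0 libraries to 252 to 379 CPM over those of E10.5. Other marker sums moved as well. The mean erythroid sum (9 of 9 markers in the table, none at 0) went from 3617 to 7233 CPM in wildtype PA1, with overlapping libraries, and from 1510 to 5614 CPM in PA1 labelled Hoxa2-/-. In PA2 labelled Hoxa2-/- it went from 3024 to 5367 CPM. In wildtype PA2 the mean erythroid sum went the other way, from 22139 to 7092 CPM, with the highest E9.0 library at 74323 CPM. That of endothelium (4 of 4) went from 213 to 113 CPM in wildtype PA1, and that of arch mesenchyme from 368 to 608 CPM in wildtype PA2. The part of these cell types in the results was not tested.

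**Figure D2:**
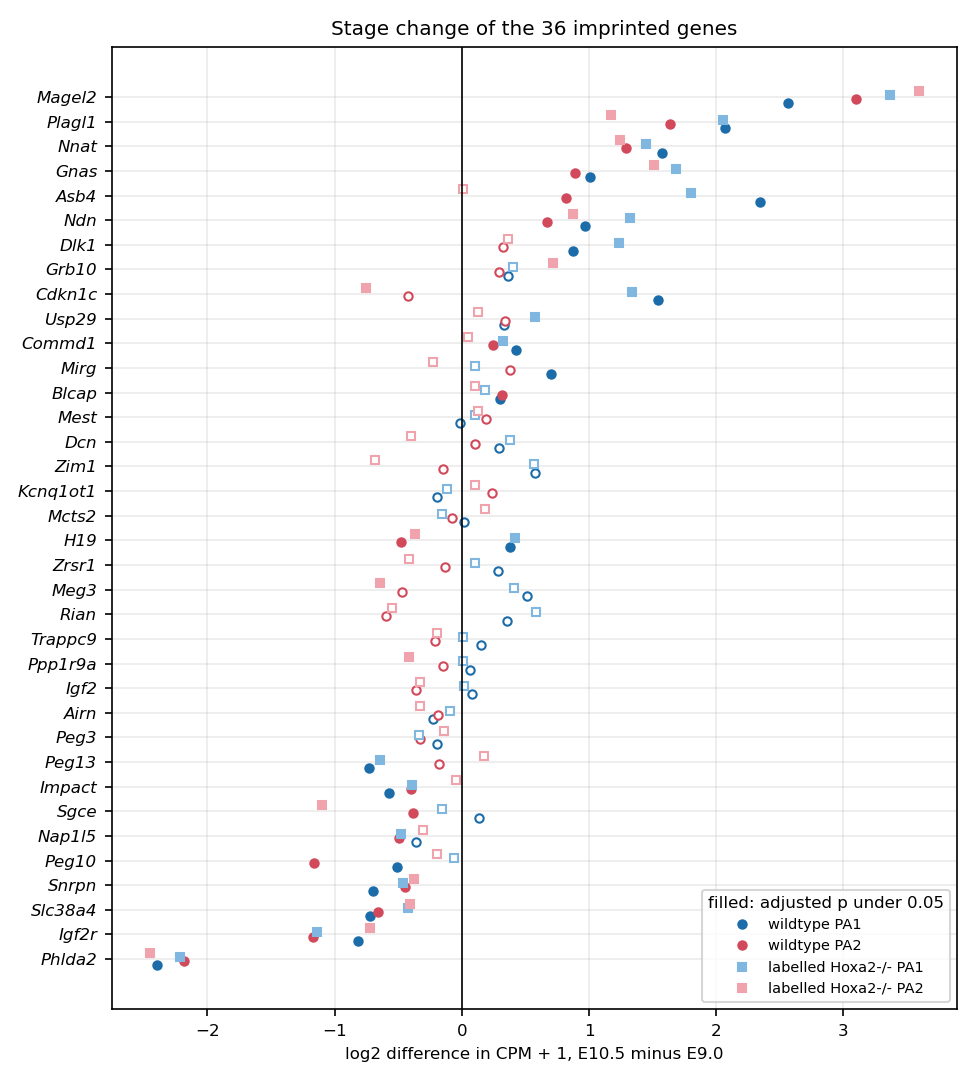
Log2 difference of E10.5 minus E9.0 for each of the 36 genes in wildtype (circles) and in embryos labelled Hoxa2-/- (squares), on the log2(CPM + 1) scale; filled symbols have an adjusted p under 0.05. Magel2 has the highest values, 2.57 to 3.59, and Phlda2 the lowest, -2.45 to -2.18.

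By direction, 5 of the 36 genes were higher at E10.5 in all 4 comparisons (Plagl1, Ndn, Magel2, Nnat and Gnas) and 4 were lower in all 4 (Igf2r, Phlda2, Snrpn and Slc38a4). The share of all genes that passed in the same direction in all 4 was not counted, so these numbers have no background beside them. Another 7 rose in at least 1 comparison and fell in none: Dlk1, Mirg, Usp29, Grb10, Blcap, Commd1 and Asb4. A further 7 fell in at least 1 and rose in none: Meg3, Peg10, Sgce, Impact, Peg13, Nap1l5 and Ppp1r9a. H19 and Cdkn1c passed in both directions. The remaining 11, Igf2, Rian, Kcnq1ot1, Peg3, Zim1, Mest, Zrsr1, Trappc9, Airn, Dcn and Mcts2, passed in none. Both parental lists held genes of both directions. Of the 20 paternally expressed genes 5 rose and 5 fell in wildtype PA1, and of the 12 maternally expressed genes 4 rose and 2 fell. Of all genes, 21% rose and 21.5% fell there. In PA2 labelled Hoxa2-/- the counts were 4 and 3 for the paternal list and 1 and 6 for the maternal list. Of all genes, 15.8% rose and 15.1% fell in that comparison. Counts by parental list are not given for wildtype PA2 and PA1 labelled Hoxa2-/-, so the lists are not contrasted.

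Among the genes that set growth through IGF2, the ligand gave no call between the stages, with a mean of 16.2 CPM over the 16 groups and 23.2 CPM in the highest. Its adjusted p between E9.0 and E10.5 was 0.833 in wildtype PA1, 0.289 in wildtype PA2, 0.967 in PA1 labelled Hoxa2-/- and 0.365 in PA2 labelled Hoxa2-/- (limma). The receptor Igf2r (ENSMUSG00000023830, GRCm38 chr17:12682406-12769664, minus strand) fell in all 4 in the fit of all libraries. In wildtype PA1 the E9.0 libraries held 166, 147, 120, 142 and 141 CPM and those of E10.5 held 73.8, 81.4 and 87.5 CPM. Wildtype PA2 went from 180, 122, 177 and 134 to 64.9, 81.8 and 55.5 CPM. The stages did not overlap in either wildtype arch. PA1 labelled Hoxa2-/- went from 138, 96.9, 152 and 136 to 54.9, 58.1 and 61.1 CPM. PA2 labelled Hoxa2-/- went from 223, 145, 47.6 and 112 to 68.3, 78.7 and 61.5 CPM, and there 1 library of E9.0 lay below all of E10.5. The log2 difference was -0.81 ± 0.27 (SE; adjusted p = 0.0107), -1.17 ± 0.28 (0.000642), -1.14 ± 0.28 (0.00116) and -0.72 ± 0.28 (0.0412) in the same order. In PA2 labelled Hoxa2-/- the call was lost in 5 of 7 fits that each left out 1 library, with -0.40 (adjusted p = 0.27) without replicate 1 of E9.0, and in wildtype PA1 it was lost without replicate 1 of E10.5 (-0.75, adjusted p = 0.0503). Without the libraries high in heart markers, which are described below with Cdkn1c, the Igf2r difference was -0.87 in wildtype PA2. In PA2 labelled Hoxa2-/- it was 0.53. That fit kept 1 library in each PA2 group of E9.0, so it cannot settle these calls.

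Plagl1 (ENSMUSG00000019817, GRCm38 chr10:13060504-13131694, plus strand), a zinc-finger transcription factor known to regulate other imprinted genes, rose. In wildtype PA1 it went from 51.2, 54.4, 51.3, 83.3 and 45.0 CPM to 235, 250 and 225 CPM, and in wildtype PA2 from 75.6, 35.3, 57.9 and 43.3 to 170, 199 and 122 CPM. In PA1 labelled Hoxa2-/- it went from 29.8, 33.7, 36.2 and 45.4 to 163, 137 and 157 CPM. In these 3 comparisons every E10.5 library lay above every E9.0 library. PA2 labelled Hoxa2-/- went from 44.1, 45.9, 17.2 and 98.8 to 120, 68.6 and 117 CPM, with overlap. The ratios of group means were 4.15, 3.09, 4.21 and 1.98. On the log2 scale the differences were 2.07 ± 0.32 (SE; adjusted p = 5.3e-07), 1.64 ± 0.34 (0.000103), 2.06 ± 0.34 (3.19e-06) and 1.17 ± 0.34 (0.00573). The last call was lost without replicate 3 of E9.0 (0.74, adjusted p = 0.087), a library high in yolk sac markers.

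Phlda2 (ENSMUSG00000010760, GRCm38 chr7:143501545-143503150, minus strand), a maternally expressed gene whose product restrains placental growth, fell close to its detection floor. Wildtype PA1 held 6.74, 7.16, 8.05, 8.28 and 9.92 CPM at E9.0 and 1.14, 0.633 and 0.416 CPM at E10.5. Wildtype PA2 held 4.43, 4.49, 6.29 and 5.52 CPM and then 0.207, 0.369 and 0.499 CPM. The stages stood wholly apart. PA1 labelled Hoxa2-/- went from 8.40, 7.55, 10.2 and 6.24 to 0.963, 0.849 and 0.998 CPM, and PA2 labelled Hoxa2-/- from 10.1, 5.75, 11.9 and 7.48 to 0.458, 0.960 and 0.841 CPM. E9.0 means were 11.0, 14.5, 8.63 and 11.7 times those of E10.5. The log2 differences were -2.39 ± 0.33 (SE; adjusted p = 3.4e-08), -2.18 ± 0.35 (1.01e-06), -2.21 ± 0.35 (1.24e-06) and -2.45 ± 0.35 (1.12e-07). They understate the change of so low a gene, and with a pseudocount of 5 they shrank to between -1.24 and -0.92. The fall came after E9.5, where group means were still 4.41 to 7.34 CPM, whereas at E10.0 they were 1.25 to 1.83 CPM.

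The other members of this growth group moved less evenly. Grb10, an adaptor that dampens insulin and IGF receptor signalling, rose in PA2 labelled Hoxa2-/- (1062 to 1646 CPM, log2 difference 0.71, adjusted p = 0.000855), though by 0.43 without replicate 3 of E9.0. In the other 3 comparisons its mean was also higher at E10.5, with adjusted p of 0.0661, 0.183 and 0.0665. Dlk1, a Notch-like membrane protein of precursor cells, rose in PA1, by 0.87 in wildtype (150 to 266 CPM; adjusted p = 0.00337, stages overlapping) and by 1.23 under the label Hoxa2-/- (139 to 327 CPM; 0.000175). In PA2 its adjusted p was 0.338 and 0.311.

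Among the genes of the Prader-Willi region, Magel2 (ENSMUSG00000056972, GRCm38 chr7:62377010-62381640, plus strand), a MAGE-family protein that acts with ubiquitin ligases, had the widest rise of the 36. Wildtype PA1 held 5.54, 6.40, 5.28, 4.90 and 6.87 CPM at E9.0 and 36.7, 37.1 and 43.7 CPM at E10.5. Wildtype PA2 held 2.37, 3.53, 3.09 and 2.76 CPM and then 33.7, 32.3 and 31.7 CPM. No library of one stage reached the range of the other. PA1 labelled Hoxa2-/- went from 6.11, 5.63, 2.59 and 9.46 to 64.0, 68.3 and 65.0 CPM, and PA2 labelled Hoxa2-/- from 4.01, 6.57, 3.22 and 4.52 to 75.3, 53.4 and 67.2 CPM. Group means rose 6.75, 11.1, 11.1 and 14.3 times. The log2 differences were 2.57 ± 0.47 (SE; adjusted p = 1.04e-05), 3.10 ± 0.49 (9.19e-07), 3.36 ± 0.49 (2.8e-07) and 3.59 ± 0.49 (5.08e-08). The libraries of E9.5 were widely spread. Wildtype libraries of E9.5 ranged from 5.88 to 45.1 CPM in PA1 and from 4.05 to 24.7 CPM in PA2, with embryo 5 highest in both arches. Libraries labelled Hoxa2-/- ranged from 16.4 to 60.2 CPM in PA1 and from 3.38 to 67.0 CPM in PA2, with embryo 4 highest in both.

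Ndn (ENSMUSG00000033585, GRCm38 chr7:62346569-62350262, plus strand), the neighbouring MAGE-family gene, rose with it. Wildtype PA1 went from 171, 124, 130, 166 and 134 to 261, 328 and 264 CPM, and wildtype PA2 from 171, 146, 163 and 149 to 247, 260 and 244 CPM. Under the label Hoxa2-/-, PA1 went from 145, 148, 126 and 140 to 344, 338 and 372 CPM, and PA2 labelled Hoxa2-/- from 176, 170, 162 and 217 to 347, 295 and 354 CPM. In all 4 comparisons the stages did not overlap. The log2 differences were 0.97 ± 0.14 (SE; adjusted p = 1.21e-07), 0.67 ± 0.15 (0.000273), 1.32 ± 0.15 (4.66e-10) and 0.88 ± 0.15 (5.04e-06).

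Snrpn (ENSMUSG00000102252, GRCm38 chr7:59982495-60140219, minus strand), which encodes a small nuclear ribonucleoprotein and lies in the same region, went the other way. Wildtype PA1 fell from 69.9, 64.7, 66.8, 79.2 and 70.7 to 40.5, 43.9 and 43.9 CPM, and wildtype PA2 from 60.7, 62.1, 58.6 and 66.6 to 46.0, 42.8 and 46.9 CPM. Embryos labelled Hoxa2-/- fell in PA1 from 88.7, 70.0, 81.8 and 75.9 to 61.7, 51.3 and 58.4 CPM, and PA2 labelled Hoxa2-/- from 74.0, 67.4, 77.7 and 79.1 to 55.4, 56.1 and 60.1 CPM. The stages stood apart in all 4 comparisons. The log2 differences were -0.70 ± 0.08 (SE; adjusted p = 1.34e-10), -0.45 ± 0.08 (1.6e-05), -0.46 ± 0.08 (1.26e-05) and -0.37 ± 0.08 (0.000289). Other genes share 34.1% of the exonic bases of Snrpn, which leaves its count uncertain.

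Nnat (ENSMUSG00000067786, GRCm38 chr2:157560078-157562522, plus strand), a small membrane protein of calcium handling whose gene sits inside an intron of Blcap, rose in both arches. Wildtype PA1 went from 241, 227, 198, 222 and 226 to 635, 741 and 621 CPM, and wildtype PA2 from 203, 165, 188 and 200 to 381, 542 and 479 CPM. PA1 labelled Hoxa2-/- went from 164, 230, 202 and 203 to 662, 524 and 462 CPM, and PA2 labelled Hoxa2-/- from 174, 165, 150 and 114 to 393, 338 and 338 CPM. Every E10.5 library lay above every E9.0 library of its own arch and label. The group means rose 2.99, 2.47, 2.75 and 2.36 times, with log2 differences of 1.57 ± 0.16 (SE; adjusted p = 5.46e-12), 1.29 ± 0.17 (6.27e-09), 1.45 ± 0.17 (6.41e-10) and 1.25 ± 0.17 (2.32e-08). The host Blcap rose by 0.30 and 0.32 on the log2 scale in wildtype PA1 and PA2 (adjusted p = 0.0014 and 0.00163) and had an adjusted p of 0.0885 and 0.35 under the label Hoxa2-/-. The summed neuron markers (5 of 6 in the table), given because Nnat, Ndn and Magel2 are known from neurons, had means of 40.6 and 43.5 CPM at E9.0 and E10.5 in wildtype PA1, and of 151 and 82.1 CPM in wildtype PA2.

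Gnas (ENSMUSG00000027523, GRCm38 chr2:174284320-174346744, plus strand), which encodes the stimulatory G protein alpha subunit and several imprinted isoforms, rose from a low level. Wildtype PA1 went from 8.15, 7.86, 5.74, 7.45 and 7.71 to 15.9, 17.6 and 13.9 CPM, and wildtype PA2 from 7.0, 6.52, 6.95 and 5.74 to 9.98, 16.2 and 13.3 CPM. With the label Hoxa2-/-, PA1 went from 5.50, 6.75, 4.68 and 7.88 to 20.5, 23.3 and 21.9 CPM, and PA2 labelled Hoxa2-/- from 7.58, 6.65, 5.96 and 6.0 to 19.1, 15.9 and 28.1 CPM. No stages overlapped. The log2 differences were 1.01 ± 0.23 (SE; adjusted p = 0.000285), 0.89 ± 0.24 (0.00255), 1.69 ± 0.24 (1.49e-07) and 1.51 ± 0.24 (1.26e-06). Genes on the opposite strand share 22.0% of the exonic bases of Gnas, and which isoform was counted is not resolved.

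Slc38a4 (ENSMUSG00000022464, GRCm38 chr15:96994820-97055956, minus strand), an amino acid transporter expressed from the paternal allele, fell. Wildtype PA1 went from 260, 231, 245, 304 and 239 to 156, 146 and 159 CPM, and wildtype PA2 from 290, 186, 310 and 283 to 168, 162 and 167 CPM. Under the label Hoxa2-/-, PA1 went from 271, 276, 268 and 231 to 183, 184 and 215 CPM, and PA2 labelled Hoxa2-/- from 357, 289, 190 and 263 to 199, 189 and 219 CPM. Only the last of these comparisons had overlapping stages. The log2 differences were -0.72 ± 0.14 (SE; adjusted p = 1.98e-05), -0.66 ± 0.14 (0.00022), -0.43 ± 0.14 (0.0185) and -0.40 ± 0.14 (0.0263). Under the label Hoxa2-/- the call was lost in 2 of the fits without 1 library in PA1 and in 4 in PA2, lowest at -0.27 (adjusted p = 0.16) without replicate 1 of E9.0 in PA2. Without the libraries high in heart markers the PA2 differences of Slc38a4 were -0.16 in wildtype and 0.09 under the label Hoxa2-/-. That fit kept 1 library in each PA2 group of E9.0, so it cannot settle these calls. The library kept was high in erythroid markers in wildtype and in yolk sac markers under the label Hoxa2-/-.

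**Figure D3:**
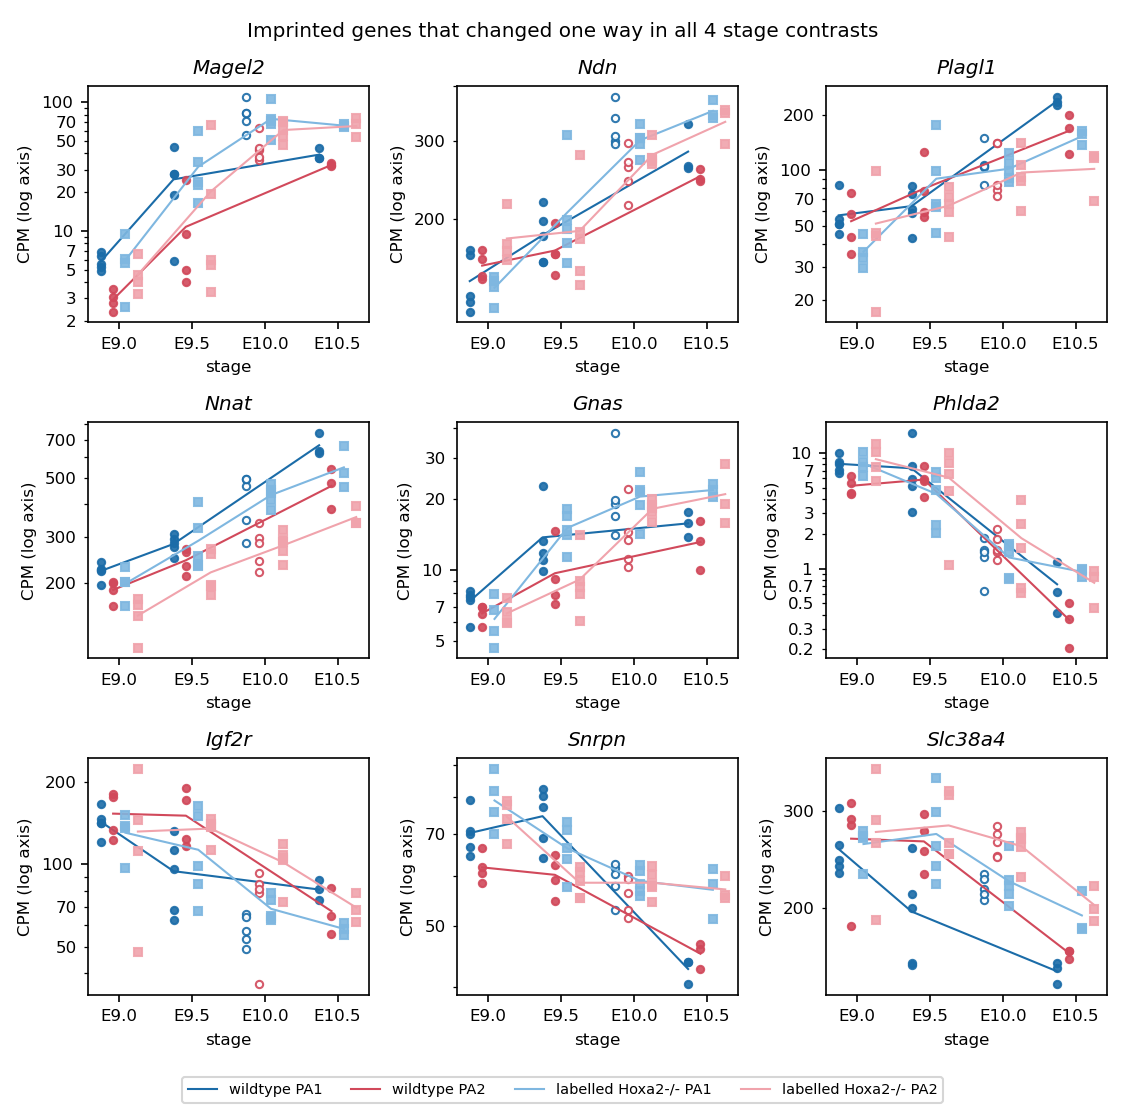
CPM of the 9 genes that changed in the same direction in all 4 comparisons, 1 point per library on a log axis against embryonic day; circles are wildtype, squares labelled Hoxa2-/-, lines join group means, and open symbols are wildtype E10.0, which was left out of comparisons between stages. Phlda2 drops from 4.41 to 7.34 CPM (group means) at E9.5 to 1.25 to 1.83 CPM at E10.0, and Magel2 is most widely spread at E9.5.

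The start regions of 4 of the 5 genes that rose in all comparisons are shown because these genes moved together. Each is a 300 base window, 250 bases before to 50 after a RefSeq start (GRCm38.p6), written 5′ to 3′ along the gene's strand. Capitals mark the hexamer TGCCGC, on either strand, which the imprint-keeping zinc-finger protein ZFP57 binds when methylated.
Plagl1 promoter chr10:13090582-13090881, plus strand: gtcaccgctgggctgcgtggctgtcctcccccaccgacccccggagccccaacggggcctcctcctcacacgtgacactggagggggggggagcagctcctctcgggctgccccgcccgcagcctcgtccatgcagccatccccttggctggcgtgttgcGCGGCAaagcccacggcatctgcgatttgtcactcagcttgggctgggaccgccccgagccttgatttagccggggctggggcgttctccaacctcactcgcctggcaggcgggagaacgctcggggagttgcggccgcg
Nnat promoter chr2:157559828-157560127, plus strand: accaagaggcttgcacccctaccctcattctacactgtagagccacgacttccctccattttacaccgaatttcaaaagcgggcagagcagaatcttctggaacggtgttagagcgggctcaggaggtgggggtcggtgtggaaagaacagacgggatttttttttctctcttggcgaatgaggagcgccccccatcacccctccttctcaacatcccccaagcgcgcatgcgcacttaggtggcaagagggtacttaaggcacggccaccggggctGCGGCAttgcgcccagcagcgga
Ndn promoter chr7:62348027-62348326, plus strand: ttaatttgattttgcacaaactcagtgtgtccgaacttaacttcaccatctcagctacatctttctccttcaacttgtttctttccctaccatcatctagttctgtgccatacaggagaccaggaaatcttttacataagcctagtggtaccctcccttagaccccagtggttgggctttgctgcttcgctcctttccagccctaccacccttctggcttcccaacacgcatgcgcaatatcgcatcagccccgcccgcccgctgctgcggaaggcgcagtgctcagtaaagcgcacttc
Magel2 promoter chr7:62376729-62377028, plus strand: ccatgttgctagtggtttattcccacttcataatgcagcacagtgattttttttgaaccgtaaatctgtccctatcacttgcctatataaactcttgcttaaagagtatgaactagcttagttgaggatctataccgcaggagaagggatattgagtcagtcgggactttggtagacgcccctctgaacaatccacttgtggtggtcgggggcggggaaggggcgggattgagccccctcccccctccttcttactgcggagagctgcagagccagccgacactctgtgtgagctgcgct

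Nnat and Plagl1 each held 1 such hexamer in these windows, and those of Ndn and Magel2 held 0. Gnas, the fifth of these genes, has 4 windows, not shown, and they held 0. Over the members, 46 windows covered 28 genes, and 12 windows, or 26.1%, held TGCCGC on either strand, against 11.6% of all 32851 windows in the table. GGGGCCCC, a motif bound by PLAGL1, stood in 3 windows (6.52%) against 1.08% of all. Some windows overlap: the 3 with GGGGCCCC hold 2 distinct sites, since those of Peg3 and Usp29 share 1, and the 12 with TGCCGC belong to 11 genes, since 2 nearly identical windows of Mest both count. The median number of CpG pairs was 12 per window for the members and 7 for all windows. A match is only a run of letters, and neither methylation nor binding was measured.

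Stage by stage, the comparisons were added after the data were seen. Under the label Hoxa2-/-, whose libraries all lie on a single side of the division, 8 of the 36 genes passed between E9.0 and E9.5 in PA1, against 2.85% of all genes. Dlk1 (0.85), Plagl1 (1.14), Ndn (0.52), Magel2 (2.19), Nnat (0.51), Gnas (1.17) and Asb4 (0.93) rose on the log2 scale and Snrpn fell by 0.25. Replicate 3 of E9.5, a library high in collagen transcripts (Col1a1 at 1822 CPM), held 176 CPM of Plagl1 where the others held 46.0 to 99.5, and 385 CPM of Dlk1 where the others held 191 to 321. Without it neither call held, at 0.86 (adjusted p = 0.121) for Plagl1 and 0.70 (0.112) for Dlk1. Both were also lost without replicate 1 or 3 of E9.0 or replicate 4 of E9.5. There the adjusted p of limma was 0.066 to 0.109 for Plagl1 and 0.104 to 0.118 for Dlk1.

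In PA2 labelled Hoxa2-/- that step gave 11 calls (16.9% of all genes), 3 up and 8 down, among them Dlk1, Meg3 and Rian with lower values at E9.5. These 3 calls were lost without replicate 4 of E9.0, which held 58.1 CPM of Rian where the others held 19.7 to 23.3, 82.8 CPM of Meg3 where the others held 42.0 to 46.8, and 240 CPM of Dlk1 where the others held 122 to 181. Without it the differences were -0.34 (adjusted p = 0.359) for Rian, -0.49 (0.127) for Meg3 and -0.49 (0.174) for Dlk1. Other single libraries ended the calls as well (limma). Rian was lost without replicate 3 of E9.0 (0.056) or any of replicates 1 to 4 of E9.5 (0.0607 to 0.0901). Dlk1 was lost without replicate 1 of E9.0 (0.0623) or of E9.5 (0.159), and Meg3 without replicate 4 of E9.5 (0.0532).

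The next step, E9.5 to E10.0, gave 5 calls in PA1 labelled Hoxa2-/- (4.4% of all genes) and 5 in PA2 (4.57%). Ndn rose again in PA1 (0.58) and in PA2 (0.61), as did Magel2 (1.31 and 2.32), and Phlda2 fell (-1.19 and -1.26). From E10.0 to E10.5 limma called 0 of the 36 in either arch, with 2 in PA1 and 5 in PA2 at an unadjusted p under 0.05, and edgeR also called 0; 0.298% and 0.239% of all genes passed. In wildtype, 6 genes passed between E9.0 and E9.5 in PA1 (6.73% of all genes), where H19, Cdkn1c, Magel2 and Gnas rose and Slc38a4 and Peg13 fell. In wildtype PA2 limma called 0 at that step (6.68% of all genes), with 5 at an unadjusted p under 0.05, and edgeR called 2.

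These step counts depended on the fit. With only the compared groups, the steps of E9.0 to E9.5 and E9.5 to E10.0 under the label Hoxa2-/- gave 1 and 0 calls in PA1 and 0 and 1 in PA2, with 10 to 13 genes at an unadjusted p under 0.05, and 0.0271% to 0.765% of all genes passed. Without the libraries high in heart markers the second of these steps gave 0 calls in PA2 (6 at an unadjusted p under 0.05), and 0.0651% of all genes passed. For the first step, PA2 of E9.0 kept 1 library in that fit, so no count is given. Leaving out 1 library, the first step in PA1 gave 3 calls without replicate 3 of E9.0 or replicate 4 of E9.5, 4 without replicate 1 of E9.0 and 5 without replicate 3 of E9.5. In PA2 it gave 7 without replicate 4 of either stage. The second step in PA1 gave 2 calls without replicate 1 of E9.5, 9 without replicate 4 of E9.5 and 3 without replicate 5 of E10.0, and the wildtype PA1 step gave 2 without replicate 1 and 10 without replicate 2 of E9.5. Shares of all genes are not given for these fits without 1 library.

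Cdkn1c, H19 and Asb4 had a stage difference that depended on the arch. They are described with their library values after these were seen, and the test of the difference between arches was added then. Cdkn1c (ENSMUSG00000037664, GRCm38 chr7:143458339-143461050, minus strand) encodes p57, an inhibitor of cyclin-dependent kinases that holds cells out of the cycle. In wildtype PA1 it rose from 80.8, 85.3, 74.0, 89.7 and 90.9 to 232, 289 and 222 CPM, a log2 difference of 1.54 ± 0.20 (SE; adjusted p = 4.37e-09). In PA1 labelled Hoxa2-/- it rose from 77.3, 99.2, 74.1 and 110 to 256, 215 and 212 CPM, by 1.34 ± 0.21 (8.3e-07). The stages stood apart in both. In PA2 labelled Hoxa2-/- it fell from 293, 195, 218 and 203 to 156, 118 and 127 CPM, by 0.76 on the log2 scale (adjusted p = 0.00334). Wildtype PA2 held 265, 109, 226 and 252 CPM at E9.0 and 133, 171 and 149 CPM at E10.5, which overlap (-0.42, adjusted p = 0.102; -0.72, 0.00275 without replicate 2 of E9.0, a library high in erythroid markers). The difference between the arches in the stage change was -1.96 ± 0.29 (SE; adjusted p = 2.99e-06) in wildtype and -2.10 (1.72e-06) under the label Hoxa2-/-, PA2 minus PA1. At E10.5 Cdkn1c was lower in PA2 by 0.71 on the log2 scale in wildtype and by 0.77 under the label Hoxa2-/-, which passed only with the embryo as a block or in a fit of the compared groups alone (adjusted p = 0.039 and 0.0205 with the block). A gene on the opposite strand shares 30.7% of the exonic bases of Cdkn1c, which leaves its count uncertain.

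H19 (ENSMUSG00000000031, GRCm38 chr7:142575529-142578143, minus strand), the maternally expressed non-coding RNA next to Igf2, followed the same directions with smaller steps. It rose in wildtype PA1 from 208, 194, 152, 230 and 176 to 248, 256 and 238 CPM (0.38, adjusted p = 0.0209) and in PA1 labelled Hoxa2-/- from 171, 186, 173 and 194 to 264, 237 and 224 CPM (0.41, 0.0207). It fell in wildtype PA2 from 274, 375, 243 and 205 to 190, 202 and 183 CPM (-0.48, 0.00603) and in PA2 labelled Hoxa2-/- from 266, 223, 227 and 229 to 183, 187 and 177 CPM (-0.37, 0.0413). No stages overlapped. The difference between the arches was -0.86 ± 0.20 (SE; adjusted p = 0.00488) in wildtype and -0.78 (0.0113) under the label Hoxa2-/-. Single libraries decided some of these calls: in wildtype PA1 the call was lost without replicate 3 of E9.0 (0.30, adjusted p = 0.0817) and without replicate 1 or 2 of E10.5, in wildtype PA2 without replicate 2 of E9.0 (-0.32, adjusted p = 0.0743), and in PA2 labelled Hoxa2-/- it held in 1 of 7 such fits.

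Asb4, an ankyrin-repeat protein of ubiquitin ligases, rose in wildtype PA1 from 65.0, 53.4, 49.9, 87.9 and 56.5 to 351, 396 and 225 CPM, 5.18 times, and in PA1 labelled Hoxa2-/- from 45.7, 59.0, 44.0 and 56.9 to 193, 166 and 183 CPM, 3.52 times. Wildtype PA2 went from 143, 57.1, 87.3 and 108 to 208, 179 and 123 CPM, with overlap (log2 difference 0.82, adjusted p = 0.0053; 0.58, 0.0555 without replicate 2 of E9.0 and 0.66, 0.0577 without replicate 1 of E10.5). In PA2 labelled Hoxa2-/- the stages overlapped, at 96.0, 98.9, 72.8 and 154 against 127, 81.2 and 103 CPM (adjusted p = 0.987). The difference between the arches was -1.53 ± 0.33 (SE; adjusted p = 0.00279) in wildtype and -1.80 (0.000452) under the label Hoxa2-/-. Of the 36 genes, 3 passed this test in wildtype, where 3.35% of all genes did, and 5 under the label Hoxa2-/-, where 7.33% did. The 2 others were Sgce, which encodes epsilon-sarcoglycan (-0.94, adjusted p = 0.000775), and Meg3, a maternally expressed non-coding RNA (-1.05, 0.0487; held in 4 of 14 fits without 1 library). Sgce fell in PA2 labelled Hoxa2-/- from 60.3, 51.1, 49.9 and 58.7 to between 24.6 and 25.7 CPM.

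**Figure D4:**
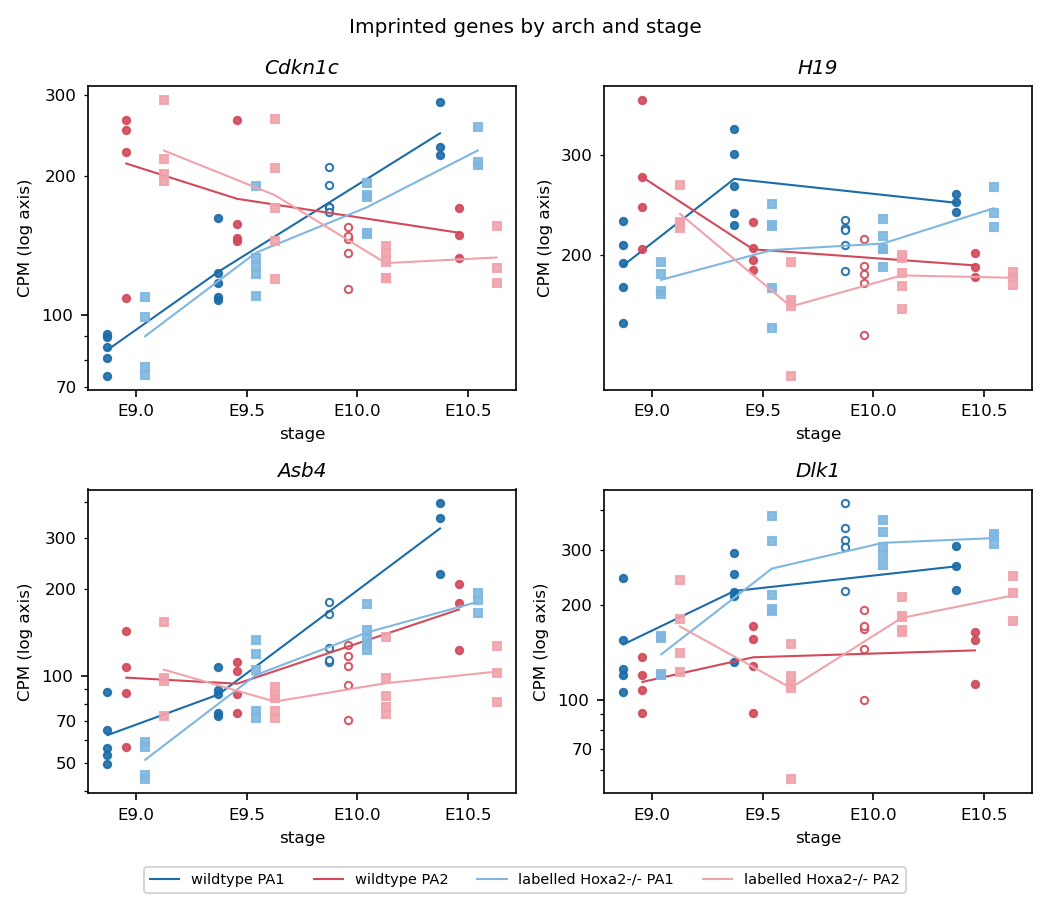
CPM of Cdkn1c, H19, Asb4 and Dlk1 in each library by embryonic day, PA1 and PA2 apart; circles are wildtype, squares labelled Hoxa2-/-, lines join group means, and open symbols are wildtype E10.0. Cdkn1c in wildtype PA1 goes from 74.0 to 90.9 CPM at E9.0 to 222 to 289 CPM at E10.5, while PA2 starts at 109 to 293 CPM.

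PA2 libraries of the early stages also held heart muscle transcripts. The summed heart muscle markers (5 of 6 in the table) ran from 20.2 to 660 CPM in wildtype PA2 and from 54.1 to 699 CPM in PA2 labelled Hoxa2-/- at E9.0, against means of 15.9 and 20.6 CPM in PA1, and from 0.998 to 3.44 CPM in PA2 at E10.5. Cdkn1c was lowest in wildtype PA2 at E9.0 in the library lowest in heart markers (109 CPM beside a sum of 20.2 CPM), where the other 3 held 226 to 265 CPM beside sums of 624 to 660 CPM. That library is also the one high in erythroid markers (a sum of 74323 CPM, where the median of all libraries is 3185), so the parts of the 2 marker sums cannot be told apart. Under the label Hoxa2-/- the E9.0 library lowest in heart markers (54.1 CPM) held 218 CPM of Cdkn1c. At E9.5, PA2 labelled Hoxa2-/- held 120, 145, 208, 171 and 266 CPM beside heart sums of 7.83, 31.8, 239, 244 and 465 CPM. Wildtype PA2 of E9.5 held 144, 147, 158 and 265 CPM beside 19.7, 26.1, 117 and 565 CPM. In wildtype PA1 of E9.5 the highest sum (99.5 CPM) went with the highest Cdkn1c (162 CPM). In PA1 labelled Hoxa2-/- the highest Cdkn1c of E9.5 (191 CPM) went with the lowest sum (5.15 CPM). Without all libraries high in heart markers, each PA2 group of E9.0 kept 1 library, which was assumed to vary like the other groups. The one kept in wildtype is the erythroid-high replicate 2, and the one kept under the label Hoxa2-/-, replicate 3, is high in yolk sac markers (a sum of 440 CPM, median 4.11). These values therefore rest on libraries that stand apart in another way. In that fit the wildtype difference between the arches in the stage change of Cdkn1c was -1.08. That of Asb4 was -0.82. The part of heart tissue in these values was otherwise not tested. Of the other stage calls in wildtype PA2, that of Gnas kept its size of 0.89 in that fit, which rests on 1 library of E9.0.

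**Figure D5:**
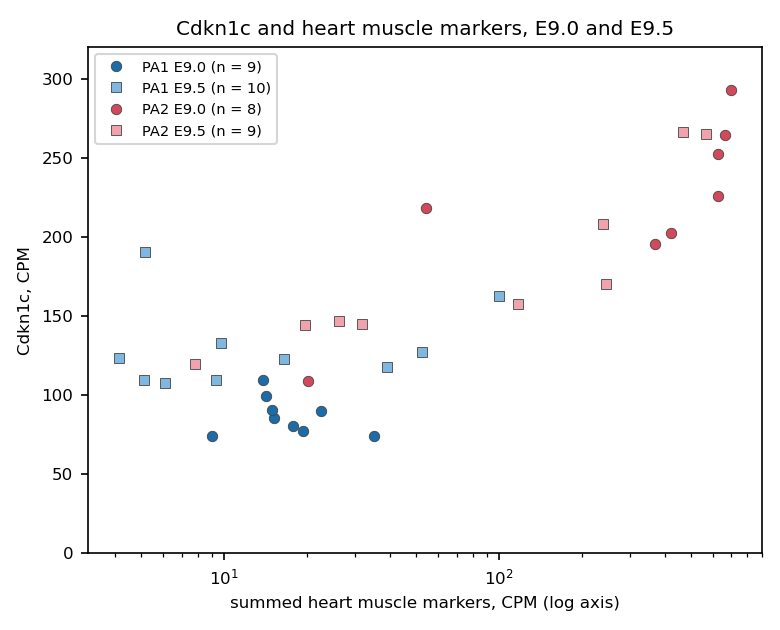
Cdkn1c in CPM against the summed heart muscle markers in CPM (log axis), 1 point per library of E9.0 and E9.5, by arch and stage. PA2 libraries reach 699 CPM of heart markers and 293 CPM of Cdkn1c; PA1 libraries of E9.0 hold 74.0 to 110 CPM of Cdkn1c.

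The second question was how the arches differed at a given stage. At wildtype E9.0, 5 of the 36 genes were higher in PA2 and 2 lower (18.7% of all genes passed, 10.2% higher and 8.53% lower). At wildtype E9.5 the counts were 4 and 8 (26.3%; 12.7% and 13.7%). They shrank to 0 and 5 in wildtype at E10.0 (5.94%; 4.51% and 1.43%) and to 0 and 3 at E10.5 (1.52%; 0.868% and 0.651%). Under the label Hoxa2-/- the counts were 6 and 4 at E9.0 (24.6%; 12.1% and 12.5%) and 1 and 7 at E9.5 (9.58%; 6.12% and 3.47%). Later they were 0 and 4 at E10.0 (4.23%; 3.13% and 1.1%), then 0 and 0 at E10.5 (1.37%; 0.982% and 0.385%). For that last count limma gave 12 genes at an unadjusted p under 0.05 and edgeR also called 0. With the embryo as a block, pairing the 2 arches, the calls at E10.0 and E10.5 numbered 9 and 7 in wildtype, where 9.68% and 2.47% of all genes passed. Those at the last 3 stages numbered 16, 9 and 4 under the label Hoxa2-/- (15.6%, 8.41% and 2.51%). Fitted on the compared groups alone, the calls were 7, 9 and 7 from E9.5 to E10.5 in wildtype (17.6%, 5.43% and 2.22% of all genes). Under the label Hoxa2-/- they were 5, 1, 8 and 5 over the 4 stages (6.02%, 4.72%, 6.33% and 1.69%). Without the libraries high in heart markers they were 1 higher and 2 lower at wildtype E9.5 (7.43% of all genes) and 0 and 3 at E9.5 labelled Hoxa2-/- (3.09%). At E9.0 that fit kept 1 library in each PA2 group, so no count is given. In the fit of all groups the early differences ran in both directions, while all 12 calls at E10.0 and E10.5 were lower in PA2. At E9.0 the widest difference was that of Cdkn1c, higher in PA2 by 1.25 ± 0.18 (SE; adjusted p = 4.71e-07) in wildtype and by 1.33 ± 0.19 (4.73e-07) under the label Hoxa2-/-. Without the libraries high in heart markers the wildtype value was 0.37 and the other was 1.29. Each rested on 1 library of PA2.

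Dlk1 (ENSMUSG00000040856, GRCm38 chr12:109452823-109463336, plus strand) was lower in PA2 in 4 of 8 comparisons. At wildtype E9.5, PA1 held 251, 213, 132, 219 and 292 CPM and PA2 held 128, 90.9, 171 and 156 CPM, with overlap (-0.69, adjusted p = 0.0205; -0.51, 0.113 without replicate 2 of PA2, and lost without replicate 1 or 5 of PA1). At wildtype E10.0, PA1 held 421, 321, 222, 351 and 306 CPM and PA2 193, 100, 145, 167 and 171 CPM (-1.06, 0.000434). The arches did not overlap there, nor in either comparison under the label Hoxa2-/-. At E9.5 labelled Hoxa2-/-, PA1 held 191, 215, 385, 321 and 195 CPM and PA2 55.9, 119, 109, 151 and 111 CPM (-1.26, 2.17e-05). At E10.0 labelled Hoxa2-/-, PA1 held 373, 342, 305, 289 and 268 CPM and PA2 212, 166, 183, 164 and 185 CPM (-0.79, 0.0207), a call lost without replicate 2 of PA1 (-0.75, 0.0591) or replicate 4 of PA2 (-0.75, 0.0555).

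Impact (ENSMUSG00000024423), an inhibitor of the stress kinase GCN2 in translation control, was lower in PA2 at E9.0 and E9.5 under both labels. At wildtype E9.0, PA1 held 119, 123, 122, 133 and 119 CPM and PA2 94.0, 72.2, 113 and 114 CPM (-0.35, adjusted p = 0.0179). At E9.0 labelled Hoxa2-/-, PA1 held 112, 104, 103 and 123 CPM and PA2 83.3, 77.7, 56.3 and 85.9 CPM (-0.55, 0.000251). Arches stood apart in both. At E9.5 they overlapped: wildtype PA1 held 110, 134, 106, 119 and 124 CPM and PA2 94.6, 109, 91.9 and 91.9 CPM (-0.29, 0.0402). With the label Hoxa2-/-, PA1 held 127, 106, 146, 104 and 110 CPM there and PA2 102, 86.4, 106, 91.5 and 86.7 CPM (-0.32, 0.0352). The wildtype call at E9.0 was lost without replicate 2 of PA2 (-0.21, adjusted p = 0.204), and those of E9.5 held in 3 of 9 fits without 1 library in wildtype and in 5 of 10 under the label Hoxa2-/-.

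Peg10 and Nnat were outside the naming rule and are given after their values were seen. Peg10, a gene derived from a retrotransposon and needed in the placenta, was lower in PA2 at wildtype E10.0, at 40.1, 32.0, 21.0, 41.0 and 28.6 CPM in PA1 against 22.4, 17.3, 9.72, 23.8 and 13.6 CPM (-0.90, adjusted p = 0.000237). At wildtype E10.5 it held 23.8, 22.4 and 25.1 CPM in PA1 and 12.6, 10.9 and 9.65 CPM in PA2 (-1.05, 0.00246). It was also lower in PA2 at E10.0 labelled Hoxa2-/- (-0.60, 0.0319; held in 3 of 10 fits without 1 library). Nnat was lower in PA2 at E10.0 in wildtype (276 against 418 CPM; -0.58, adjusted p = 0.00323) and under the label Hoxa2-/- (279 against 431 CPM; -0.63, 0.00167). The remaining early calls that both labels shared were Trappc9, Asb4, Sgce and H19, higher in PA2 at E9.0, and Mest, Rian, Magel2 and Mcts2, lower in PA2 at E9.5. Without the libraries high in heart markers, Asb4 at wildtype E9.0 went from 0.61 to -0.10. That fit kept 1 library in each PA2 group of E9.0, so it cannot settle the E9.0 calls. At E9.5 it gave 1 higher and 2 lower calls in wildtype (7.43% of all genes passed). Under the label Hoxa2-/- it gave 0 and 3 (3.09%), so not all of the genes lower at E9.5 kept their call.

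The third question was whether the label Hoxa2-/- went with a difference. At E10.0, the only stage at which both labels lie on the same side of the division, limma called 0 of the 36 genes in PA1 (0% of all genes) and 0 in PA2 (0.0814%). At an unadjusted p under 0.05 there were 0 and 3, and edgeR called 0 in both arches. At the other stages the label and the division cannot be told apart. In PA1, 0 genes were higher under the label Hoxa2-/- and 2 lower at E9.0 (2.08% of all genes; 0.83% higher and 1.25% lower). The counts were 2 and 4 at E9.5 (23.6%; 11.4% and 12.2%) and 1 and 0 at E10.5 (3.05%; 1.5% and 1.55%). In PA2 they were 4 and 2 at E9.0 (14%; 6.59% and 7.44%), 0 and 2 at E9.5 (4.48%; 1.73% and 2.75%) and 1 and 1 at E10.5 (10.3%; 6.48% and 3.85%). Without the libraries high in heart markers each PA2 group of E9.0 kept 1 library, so no count is given.

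Snrpn was higher under the label Hoxa2-/- at E10.5, with 57.1 against 42.8 CPM in PA1 (0.41 ± 0.09, SE; adjusted p = 0.0038) and 57.2 against 45.2 CPM in PA2 (0.33 ± 0.09; 0.00858), and at E9.0 in PA2 (74.6 against 62.0 CPM; 0.0144). Airn, the non-coding antisense RNA that silences Igf2r on the paternal copy, was lower at E9.0 in PA1 (3.04 against 5.09 CPM; -0.61, adjusted p = 0.0306), and in PA2 at E9.0 (4.27 against 6.71 CPM; 0.0203) and E10.5 (3.15 against 5.87 CPM; 0.0143). None of the calls at E9.0 held when only the compared groups were fitted: the adjusted p was 0.345 for Snrpn in PA2, and 0.0613 and 0.264 for Airn in PA1 and PA2. That fit called 0 of the 36 at E9.0 in both arches, with 8 and 9 at an unadjusted p under 0.05, and 3.31% and 0.0814% of all genes passed. Igf2 was lower at E9.5 in PA2, where libraries labelled Hoxa2-/- held 8.14, 15.0, 14.3, 13.9 and 10.3 CPM and wildtype held 27.2, 17.9, 26.7 and 21.0 CPM (-0.87, adjusted p = 0.0176). The groups did not overlap, but the call was lost without replicate 1 labelled Hoxa2-/- (-0.74, adjusted p = 0.0661) and without wildtype replicate 1 or 3. In the fit of all groups, a difference between the arches in the effect of the label was called for none of the 36. There limma gave 0 of 36 at each stage, with 2, 2, 0 and 1 at an unadjusted p under 0.05 from first to last. Of all genes, 0%, 0.0109%, 0.0163% and 0.038% passed, and edgeR also called 0 of the 36. Over all alternative fits the count reached 2 at E9.0 and stayed at 0 at the later stages. The share of all genes is not given for that count of 2.

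The wider IGF pathway was read beside the imprinted genes. Of 16 genes for ligands, receptors, substrates, binding proteins and mRNA-binding proteins of this pathway, 15 passed the filter. Of the 15, 3 rose and 6 fell between E9.0 and E10.5 in wildtype PA1, 1 and 7 in wildtype PA2, 3 and 5 in PA1 labelled Hoxa2-/-, and 2 and 3 in PA2 labelled Hoxa2-/-. Of all genes, 21% rose and 21.5% fell, 17.5% and 19.4%, 14.8% and 16.5%, and 15.8% and 15.1% in the same comparisons. The median log2 difference of the 15 was -0.43, -0.16, -0.36 and -0.11 in the same order, beside 0.00, -0.01, -0.02 and 0.01 for all genes. Igf1, the second ligand, rose in all 4: from 11.0 to 53.1 CPM (adjusted p = 9e-13), 16.1 to 57.8 CPM (7.47e-10), 10.2 to 24.3 CPM (2.1e-05) and 14.7 to 36.5 CPM (4.24e-06). Irs4, an adaptor of the insulin and IGF1 receptors, fell in all 4, by 1.88, 1.61, 2.58 and 1.48 on the log2 scale, from means of 3.75 to 5.89 CPM to 0.0738 to 0.542 CPM. The binding protein gene Igfbp6 passed as well, but near its floor, with means of 0.605 to 0.837 CPM at E9.0 and 0 to 0.0401 CPM at E10.5, less than 3 reads are worth.

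A mixed list was read in the same way, from 12 genes that passed the filter. It holds genes that keep imprints, genes that set new methylation and genes that oxidise methylated cytosine. In wildtype PA1, 4 rose and 4 fell, and in PA2 labelled Hoxa2-/- 8 rose and 1 fell, with 3 and 1 in wildtype PA2 and 3 and 2 in PA1 labelled Hoxa2-/-. These counts stand beside 42.5%, 36.9%, 31.2% and 30.9% of all genes that passed in wildtype PA1, wildtype PA2, and PA1 and PA2 labelled Hoxa2-/-, and medians of 0.00, -0.01, -0.02 and 0.01 over all genes. Their own median log2 difference was -0.17 in wildtype PA1, 0.15 in wildtype PA2, -0.17 in PA1 labelled Hoxa2-/- and 0.37 in PA2 labelled Hoxa2-/-. Dnmt3b, a methyltransferase that sets new methylation, fell in all 4: from 108 to 37.1, 82.3 to 36.2, 116 to 49.1 and 93.1 to 50.5 CPM. Its relative Dnmt3a rose by 0.60, 0.51, 0.51 and 0.71 on the log2 scale, and Tet2, which oxidises methylated cytosine, by 0.49, 0.89, 0.46 and 0.83. Zfp57, whose product binds the hexamer shown above, rose from 17.6 to 27.6, 17.1 to 30.7, 19 to 28.3 and 21.0 to 27.6 CPM. Of 22 further imprinted genes that passed the filter, 4 rose and 3 fell in wildtype PA1, 3 and 7 changed in wildtype PA2, 3 and 2 in PA1 labelled Hoxa2-/-, and 0 and 7 in PA2 labelled Hoxa2-/-, with medians of 0.00, -0.20, 0.01 and -0.06, beside the same shares and medians of all genes. Among these Bcl2l1, which guards against cell death, fell in all 4, by 0.22 to 0.47 on the log2 scale.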

How the data were processed

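Polyadenylated RNA of 68 manually dissected arches was turned into SMART-seq v4 cDNA and Nextera XT libraries, per the labels' protocols. The submitters' processing notes name bcl2fastq 2.18, TopHat2 2.1.1, R 3.3.2 and the build mm10; the counting program, its annotation and its use of strand are not given in the sources used here. The authors deposited 1 table of 21948 genes whose signal values are counts per 1e6 reads of a scaled library size (CPM) (column totals 926298 to 1051960), not raw counts. All values (100%) were whole multiples of 1 read within 0.01 reads, so reads were recovered. Replicate libraries are labelled as biological replicates, and in 116 pairs of them the chi-square per degree of freedom over genes was 5.84 to 95.9, so none was counted as a repeat.

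Genes with at least 1 CPM in at least 3 libraries were kept (18428), and log2(CPM + 1) was fitted with limma 3.58.1 in R 4.3.3. Each of the 16 groups had its own mean, all 68 libraries shared the estimate of spread, and the prior variance followed a trend. P-values are two-sided and were adjusted by Benjamini-Hochberg over every kept gene, with 0.05 as the threshold. A difference of log2(CPM + 1) understates the change of low genes. Main comparisons had no block. Since arches of the same replicate number were taken as 1 embryo, the pairing was checked. The arches of 30 of 33 such pairs deviated together with a correlation over 0.1 (median 0.347). edgeR 4.0.16 (quasi-likelihood, recovered reads) was an alternative, as were other pseudocounts, filters and scaling, a block by embryo, only the compared groups, and leaving out libraries. Tests were tried on simulated data. Intervals are not given, and the worth of 3 reads covers counting error only, as reads carry no molecular identifiers.

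The 36 genes, the companion lists and the comparisons were chosen with earlier results of these data known. Library values are given for members past the threshold in 1 direction in all 4 stage comparisons, in at least 4 of 8 arch comparisons in 1 direction, or between labels at E10.0 (none); members named beyond this were chosen after their values were seen. From each companion list, up to 4 genes past the threshold in all 4 stage comparisons are named. Coordinates and exon lengths are those of GENCODE M21 (GRCm38), promoter windows and microRNAs those of RefSeq (GRCm38.p6).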

Additional observations from a re-analysis of the deposited data

Results flagged for a closer look

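Within groups of 4 or 5 libraries, the highest or lowest value of a gene was marked where its gap to the next was wide by Dixon's ratio, a test that chance meets in about 1 in 20 groups. Of 432 gene and group combinations, 32 were marked, in 19 libraries and 20 genes. All values are CPM.

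In wildtype PA1, replicate 4 of E9.0 stood apart for Rian (42.4), Plagl1 (83.3), Impact (133) and Dcn (20.1), and replicate 3 of E9.0 for Gnas (5.74). Gnas also stood apart in replicate 5 of E9.5 (22.8) and in replicate 1 of E10.0 (38.3), where Usp29 did too (19.3), and Sgce in replicate 3 of E10.0 (42.6).

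In wildtype PA2, Mirg stood apart in replicate 4 (1.38) and Kcnq1ot1 in replicate 2 (93.8) of E9.0, Cdkn1c in replicate 3 (265) and Impact in replicate 2 (109) of E9.5, and Igf2r (36.5) and Commd1 (51.9) in replicate 3 of E10.0.

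In PA1 labelled Hoxa2-/-, replicate 1 of E9.0 stood apart for Mest (2378), Blcap (73.3) and Nap1l5 (2.75). At E9.5 replicate 3 did so for Zim1 (29.0), Sgce (55.5) and Dcn (92.6), and replicate 4 for Cdkn1c (191) and Ndn (311). At E10.0 replicate 1 did so for Blcap (74.7) and replicate 3 for Impact (111).

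In PA2 labelled Hoxa2-/-, replicate 4 of E9.0 stood apart for Meg3 (82.8), Rian (58.1) and Dcn (15.9), and replicate 1 for H19 (266). At E9.5 replicate 4 did so for Igf2r (113) and Magel2 (67.0), and at E10.0 replicate 3 for Ndn (310).

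The stage difference also differed between the arches by a test of the difference itself (limma, PA2 minus PA1, log2). In wildtype this held for H19 (-0.86), Cdkn1c (-1.96) and Asb4 (-1.53), and under the label Hoxa2-/- for H19 (-0.78), Meg3 (-1.05), Cdkn1c (-2.10), Sgce (-0.94) and Asb4 (-1.80).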

How the results depend on the processing

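Of 137 calls on the 36 genes in 24 planned comparisons, 4 changed sign in any alternative, each without the libraries high in heart muscle markers, an alternative chosen after seeing the data: Impact and the stage change in wildtype PA2 (0.017), Igf2r (0.53) and Slc38a4 (0.087) in PA2 labelled Hoxa2-/-, and Asb4 between the arches at wildtype E9.0 (-0.10). That alternative gave 3 and 3 arch calls at wildtype E9.5 and E9.5 labelled Hoxa2-/- (7.43% and 3.09% of all genes), and 0 label calls in PA2 at E9.5 (2.34%). Fewer libraries entered it, and each PA2 group of E9.0 kept 1 library, so its counts at E9.0 are not given.

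Fitted on the compared groups alone, PA2 labelled Hoxa2-/- gave 8 stage calls. The share of all genes is not given for that stage fit, so the count cannot be read as a result about these genes. Arch calls were 7, 9 and 7 at wildtype E9.5, E10.0 and E10.5, and 5, 1, 8 and 5 from E9.0 to E10.5 labelled Hoxa2-/-. Label calls in PA1 were 0 at E9.0, 3 at E9.5 and 8 at E10.5 (3.31%, 8.7% and 5.19% of all genes). In PA2 they were 0 and 8 at E9.0 and E10.5 (0.0814% and 13.1%). Label calls in PA1 at E9.0 were also 1 with no filter, 1 with the replicate block and 0 without libraries high in yolk sac markers; in PA1 at E10.5 they were 2 with a pseudocount of 5 and 2 with a filter of 5 CPM, and in PA2 at E9.5 1 with that filter. With the replicate block 2.15% of all genes passed between the labels in PA1 at E9.0. Shares of all genes are not given for the fits with another filter or pseudocount, or without yolk sac libraries. The cause of these shifts was not tested. The embryo as replicate block gave 9 and 7 arch calls at wildtype E10.0 and E10.5, and 16, 9 and 4 at E9.5, E10.0 and E10.5 labelled Hoxa2-/-; among the stage counts it changed only the call of Nap1l5 in PA1 labelled Hoxa2-/-.

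On recovered reads edgeR called 19, 17, 20 and 16 genes between stages. Leaving out single libraries, stage counts ranged over 16 to 19, 13 to 18, 14 to 18 and 11 to 15 in wildtype PA1, wildtype PA2 and the arches labelled Hoxa2-/-. Arch counts ranged over 5 to 8, 8 to 11, 4 to 7 and 1 to 2 in wildtype from E9.0 to E10.5 and over 6 to 12, 3 to 10, 2 to 5 and 0 labelled Hoxa2-/-. Label counts ranged over 0 to 2, 4 to 9, 0 and 1 to 2 in PA1 and over 2 to 6, 0 to 2, 0 and 0 to 2 in PA2. Shares of all genes are not given beside these edgeR stage counts and ranges, so they show only how the counts moved. The stage calls of Magel2, Ndn, Nnat and Phlda2 passed in every alternative run. Depth limits Phlda2, Mirg and Nap1l5, whose values come near the worth of 3 reads.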

Other observations

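In 3 libraries, picked after their values were seen, Dcn, which encodes the matrix proteoglycan decorin, stood above all others. Replicate 3 of PA1 E9.5 labelled Hoxa2-/-, replicate 4 of wildtype PA1 E9.0 and replicate 4 of PA2 E9.0 labelled Hoxa2-/- held 92.6, 20.1 and 15.9 CPM, against a median of 2.76 and a highest value of 6.32 CPM in the other 65. Zim1, a zinc-finger gene of the Peg3 cluster, held 29.0, 19.9 and 27.0 CPM there, with a median of 8.02 and a highest value of 19.1 CPM elsewhere. Rian held 52.9, 42.4 and 58.1 CPM (median 22.7, highest 44.7 elsewhere) and Meg3 93.2, 38.2 and 82.8 CPM (37.6 and 69.0). The same libraries held the collagen gene Col1a1 at 1822, 347 and 182 CPM (median 26.0, highest 89.6 elsewhere), Postn at 2507, 524 and 454 CPM (29.2 and 197), and Upk3b, known from mesothelium, at 57.6, 18.1 and 30.7 CPM (0.739 and 6.92). The part of these transcripts in the values of the imprinted genes was not tested.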
